A study of Mus musculus with 12 samples.

Results

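Messenger RNA of the subunits of oxidative phosphorylation was followed in 12 sequencing libraries of mouse cells that the labels call primary cardiac fibroblasts, cells that lay down the heart's connective matrix. The subunit genes were taken by symbol: the nuclear families Nduf for complex I, Sdh for complex II, Uqcr for complex III, Cox4 to Cox8 for complex IV and Atp5 for complex V, and the 13 protein-coding genes of mitochondrial DNA. This gave 98 genes of the 24619 symbols in the deposited table, of which 85 are nuclear and 13 mitochondrial. Complex I had 39 nuclear and 7 mitochondrial members, complex II had 4 nuclear members, complex III 8 nuclear and 1 mitochondrial, complex IV 17 nuclear and 3 mitochondrial, and complex V 17 nuclear and 2 mitochondrial. Ndufa4 was counted with complex IV, where its protein is now placed. By its symbol Ndufb4c, annotated as a processed pseudogene, was taken into complex I. Of the 98 genes, 96 were abundant enough to be tested. The other 2, Cox7b2 and Cox8b, had at most 2 counts in any library.

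The libraries form 4 groups of 3. OE_CM fibroblasts received conditioned medium of adipocytes that carried a lentivirus overexpressing the human microRNA miR-548ay. TGF_KD_CM is labelled with TGF-beta1, known to turn fibroblasts into matrix-secreting myofibroblasts, and the medium of adipocytes whose lentivirus inhibits this microRNA. TGF_VEC_CM is labelled with TGF-beta1 and the medium of vector adipocytes, and VEC_CM with the medium of vector adipocytes alone. To which cells the TGF-beta1 was given was not settled here. All cells were grown in 10% serum, starved for 12 h and exposed to the media for 24 h, per the labels' protocols. Sample titles defined the groups, and in the treatment labels of the OE_CM and TGF_KD_CM libraries miR-549ay stands for replicate 2 and miR-550ay for replicate 3. OE_CM and VEC_CM belong to one part of the study and TGF_KD_CM and TGF_VEC_CM to another, so in TGF_VEC_CM against VEC_CM the part and TGF-beta1 cannot be told apart. Nothing states that libraries within a group were separate cultures, so the p-values reflect the spread among these 12 libraries alone, and that spread may be technical.

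Complexes I to IV sit in the inner mitochondrial membrane. Complexes I and II feed electrons from NADH and succinate to ubiquinone, complex III passes them to cytochrome c, and complex IV hands them to oxygen. Complexes I, III and IV pump protons as they do so, and complex V, the ATP synthase, uses the returning protons to make ATP. Mitochondrial DNA encodes a few hydrophobic core subunits, transcribed as long precursors from both strands, while the nucleus encodes the rest, and the complexes need both sets. Cultured fibroblasts carry the whole system but lean less on it than heart muscle does.

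Library totals lay between 33379207 and 37226153 counts, and 3 counts, taken here as the floor, stood for 0.0806 to 0.0899 CPM (counts per 1e6 library counts). Of the fibroblast markers, Col1a2, Vim, Col1a1 and Pdgfra were abundant, with at least 93.4 CPM in every library, whereas Dcn, Lum and Thy1 reached at most 0.538 CPM. Of the heart muscle markers Tnni3, Actc1 and Myl2 were at 0 in 10 of 12 libraries, and Tnnt2 was the only abundant one (68.1 to 165 CPM). CPM values use TMM scaling, means carry the SD over 3 libraries, and log2 fold changes carry their standard error. Adjusted p-values are those of edgeR's two-sided quasi-likelihood test with Benjamini-Hochberg adjustment over all 14400 genes tested, and a gene was called at 0.05. A level here is RNA per library, in which fewer cells of a kind and less RNA per cell cannot be told apart.

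The mitochondrial COX1, ND1, CYTB, ND5 and ND2 held the highest levels among the members, while the other mitochondrial genes lay below the nuclear Atp5b. Over the 12 libraries COX1, a catalytic core subunit of complex IV, averaged 5806 FPKM (CPM divided by gene length in kilobases), ND1 of complex I 3232 FPKM, CYTB of complex III 3058 FPKM, ND5 1531 FPKM, ND2 1300 FPKM and ND4 859 FPKM. COX2 averaged 121.7 FPKM, COX3 84.2 FPKM, ND6 65.8 FPKM, ATP6 53.8 FPKM, ND4L 23.6 FPKM, ATP8 19.5 FPKM and ND3 8.58 FPKM. Levels within mitochondrial DNA thus differed by more than the spread of any gene between libraries, and COX1 stood 43.8 to 54.0 times above COX2 per length in individual libraries.

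Some of these genes are repeated in the nuclear genome. A run of annotated pseudogenes on chromosome 1 copies ND3, ND4L, COX2, COX3 and ATP6 over 99.1%, 99%, 99.6%, 99.9% and 99.6% of their length at 98% identity or more, ND4 over 63.6%, COX1 over 31.3% and ATP8 over 21.1%. ND1, ND2, ND5, ND6 and CYTB had no such copy. ND3, ND4L, COX2, COX3 and ATP6, repeated over 99% or more, averaged 8.58 to 121.7 FPKM, and ND4 averaged 859 FPKM. ND6 and ATP8, with little or no copying, averaged 65.8 and 19.5 FPKM. Whether copying plays a part in these levels was not tested. ND6 lies on the other strand, ATP6 overlaps ATP8, and ND4 overlaps ND4L. No source used here names the counting program or how it treated reads that match more than 1 place, so the levels of the copied genes are uncertain. The start of COX2 and the start of its copy Gm28661 are shown because they cannot be told apart: 681 aligned bases were 100% identical, and the 120 bases at the start had 0 mismatches. The sequences come from GENCODE transcripts of GRCm38, COX2 from chrM:7013-7132 on the plus strand and Gm28661 from chr1:24615446-24615565 on the minus strand.
COX2: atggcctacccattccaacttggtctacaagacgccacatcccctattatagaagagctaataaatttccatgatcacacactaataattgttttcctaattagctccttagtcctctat
Gm28661: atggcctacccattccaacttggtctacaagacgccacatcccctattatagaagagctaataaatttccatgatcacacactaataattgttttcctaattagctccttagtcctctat

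**Figure D1:**
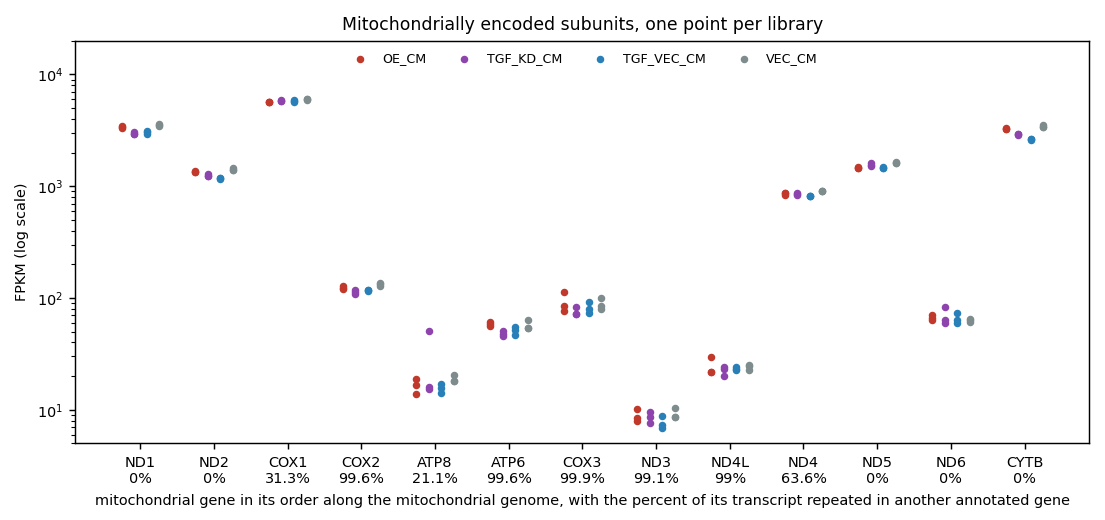
FPKM (log scale) of the 13 mitochondrial genes in their order along mitochondrial DNA, with 1 point per library coloured by group and the percent of each transcript repeated in another annotated gene below its name. Genes repeated over 99% or more lie between 8.58 and 121.7 FPKM on average, COX1 at 5806 FPKM, and a single TGF_KD_CM library stands above the others in ATP8.

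ATP8, a small subunit of the membrane part of complex V, had 3.23, 10.2 and 3.09 CPM in TGF_KD_CM, against 2.81, 3.09 and 3.37 CPM in TGF_VEC_CM. Replicate 2 of TGF_KD_CM held the largest count of the gene, 376, and the groups overlapped. ATP8 passed the test in no comparison (adjusted p = 0.176 here), by edgeR or DESeq2, and at an unadjusted 0.05 no call was made either.

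Nuclear members were led by Atp5b, the catalytic beta subunit of complex V, at 895.7 FPKM over all libraries, followed by Cox6c at 491.4 FPKM, Atp5j2 at 441 FPKM, Atp5g2 at 418.9 FPKM and Cox6b1 at 390.9 FPKM. The isoforms known from heart and skeletal muscle were low. Per length, Cox6a1, the general isoform of complex IV subunit VIa, exceeded its muscle isoform Cox6a2 by 61.3 ± 10.7 times in OE_CM, 51.25 ± 1.64 times in TGF_KD_CM, 109 ± 16.9 times in TGF_VEC_CM and 41.3 ± 3.72 times in VEC_CM. The lung isoform Cox4i2 lay even further below Cox4i1, which exceeded it by 281.6 to 1635 times in single libraries.

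In TGF_VEC_CM against VEC_CM, 62 of the 96 members were called, 6 higher and 56 lower. Over all 14400 genes 58.3% were called, 28.9% higher and 29.4% lower, whereas of the members 6.25% were higher and 58.3% lower. The median log2 fold change was -0.12 for the members and 0.00 for all genes, so the changes were mostly small. Against a minimum change of 1.2-fold (edgeR's glmTreat), 24.8% of all genes were called, 14% higher and 10.8% lower. Of the members 12 were called (12.5%), all lower: ND2, Ndufa9, Ndufb2, Ndufs3, Ndufs7, Ndufs8, CYTB, Cox6a2, Atp5e, Atp5g1, Atp5g2 and Atp5k. Genes of at most 1000 bases, which include 58 members, had a median of -0.05 in this comparison, and genes over 4000 bases one of 0.02. Whether gene length plays a part in the result was not tested.

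Summed markers of other cell types differed between these groups as well. The adipocyte list, 9 of 10 genes in the table, summed to 775.8 to 818.1 CPM in OE_CM, 968.7 to 984.9 CPM in TGF_KD_CM, 752.9 to 823.3 CPM in TGF_VEC_CM and 946.5 to 1009 CPM in VEC_CM. Plin4 and Fabp4 made up nearly all of it, while Adipoq stayed at or below 0.735 CPM and Lep was at 0 in 11 of 12 libraries. The fibroblast list, 9 of 10 genes, ran from 9381 to 9616 CPM in OE_CM, 8967 to 9279 CPM in TGF_KD_CM, 8138 to 8228 CPM in TGF_VEC_CM and 9025 to 9120 CPM in VEC_CM. The smooth muscle and pericyte list, 7 of 7 genes, ran the other way in the TGF-beta1 groups, with 875.6 to 878.5 CPM in OE_CM, 600.4 to 615.8 CPM in TGF_KD_CM, 784.4 to 807.7 CPM in TGF_VEC_CM and 555.2 to 577.1 CPM in VEC_CM, nearly all of it Cspg4, with Acta2 at or below 0.739 CPM. The part of these lists in the members' changes was not tested.

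In TGF_KD_CM against TGF_VEC_CM, 42 of 96 members were called, a share of 43.8% beside 43.3% of all genes. Their directions were uneven, 36 higher and 6 lower, while 23% of all genes were higher and 20.2% lower. The median was 0.04 for the members and -0.00 for all genes. With limma on log2(FPKM + 1) 22 were higher and 11 lower, the members' median was 0.007, and 43.5% of all genes called were higher, against 53.3% with TMM. Without replicate 2 of TGF_KD_CM 21 members were higher, and without replicate 2 of TGF_VEC_CM 10 were lower. Only Cox6a2 passed the 1.2-fold minimum (1 member, 1.04%, higher, against 10.5% of all genes, 5.53% higher and 4.93% lower).

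In OE_CM against VEC_CM, 26 of 96 members were called, 11 higher and 15 lower. That is 27.1% of the members beside 54% of all genes, 28.4% of which were higher and 25.7% lower. The median was -0.01 for members and -0.01 for all genes. These counts depend on the scaling: with upper-quartile factors 1 member was higher and 52 were lower, and with limma on log2(FPKM + 1) 3 and 45. Of all genes called, 52.5% were higher with TMM factors, 35.6% with upper-quartile factors and 38.1% with limma on FPKM. Without replicate 1 of VEC_CM 6 members were higher, and 9 and 7 were lower without replicate 2 of OE_CM and replicate 3 of VEC_CM. Past 1.2-fold there were 2 members, Ndufv3 and Cox7a1, both lower (2.08%, against 21.4% of all genes, 9.76% higher and 11.6% lower).

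The effects of the microRNA media were set against each other as the OE_CM minus VEC_CM change less the TGF_KD_CM minus TGF_VEC_CM change. This difference was called for 42 members, 10 positive and 32 negative, beside 52.5% of all genes, 25.6% positive and 26.8% negative. With upper-quartile factors 6 were positive and 51 negative, and with limma on log2(FPKM + 1) 10 and 38. Cox6a2, Atp5e and Atp5g2 differed by more than 1.2-fold (3.12%, against 28.4% of all genes). The comparison of TGF_VEC_CM with VEC_CM shares its libraries with both others, VEC_CM with the first and TGF_VEC_CM with the second, so the values of a gene in the 3 comparisons are given side by side and are not independent.

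**Figure D2:**
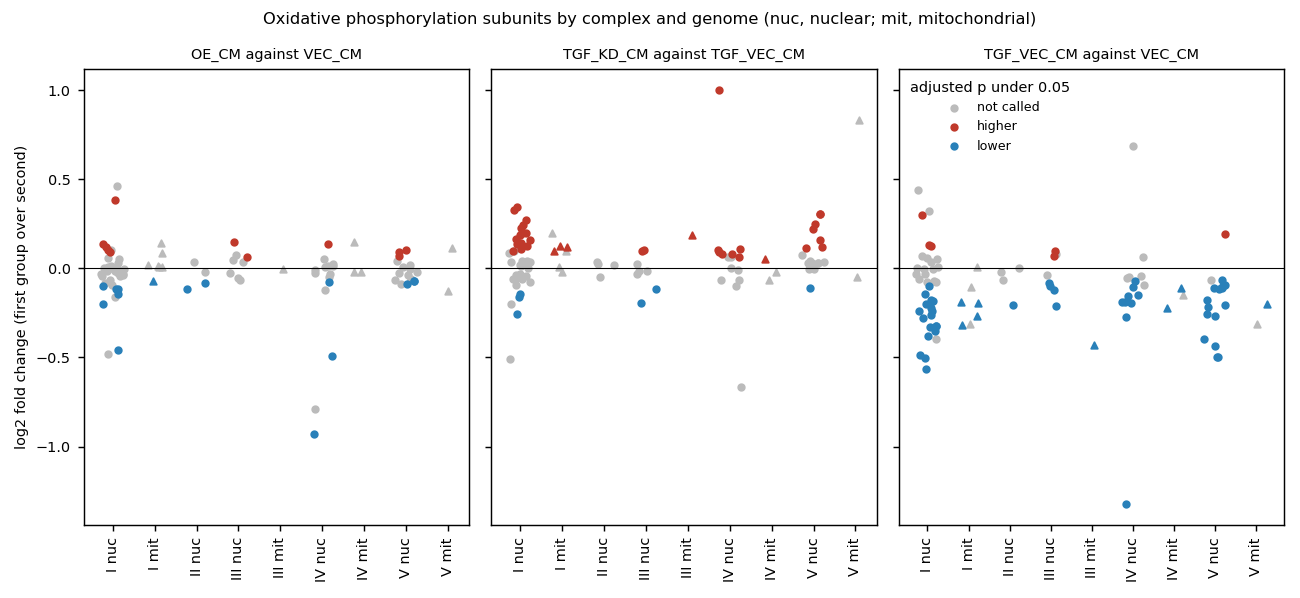
Log2 fold change of each tested member in the 3 comparisons, arranged by complex and genome (circles nuclear, triangles mitochondrial), with red and blue for genes called higher and lower by edgeR at an adjusted p of 0.05. The 56 called falls of TGF_VEC_CM against VEC_CM lie between 0 and -0.56 apart from Cox6a2 at -1.32. Of the nuclear members 48.7% fell in complex I, 25% in II, 50% in III, 60% in IV and 88.2% in V. Over all genes 29.4% fell.

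Among the mitochondrial genes, 8 of 13 fell in TGF_VEC_CM against VEC_CM and 0 rose, with 0 rises also by DESeq2 and at an unadjusted 0.05. That is 61.5% lower, beside 29.4% of all genes. Their median log2 fold change was -0.20, and 7 or 8 fell and 0 rose under the RLE, upper-quartile and FPKM settings as well. In TGF_KD_CM against TGF_VEC_CM 5 rose (38.5%, beside 23% of all genes) and 0 fell (median 0.10), again with 0 falls by DESeq2 and at an unadjusted 0.05, and 4 or 5 rose under the other scalings. In OE_CM against VEC_CM 1 fell (7.69%, beside 25.7% of all genes) and 0 rose under TMM scaling, with the same counts by DESeq2 and at an unadjusted 0.05, and 7 fell with upper-quartile factors and 6 with limma on FPKM. Of the 7 genes with less than 50% of their length repeated elsewhere, 5 fell in TGF_VEC_CM and 4 rose in TGF_KD_CM.

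CYTB, the cytochrome b subunit and only mitochondrial member of complex III (chrM:14145-15288, NCBI gene 17711), had the largest called change among these 13. It had 3898, 3993 and 3848 CPM in OE_CM, 3259, 3356 and 3293 CPM in TGF_KD_CM, 2881, 2911 and 2914 CPM in TGF_VEC_CM and 3808, 4035 and 3900 CPM in VEC_CM. OE_CM and VEC_CM overlapped, while TGF_VEC_CM lay lowest and TGF_KD_CM stood between it and VEC_CM without overlap. CYTB fell by 0.43 ± 0.021 on the log2 scale in TGF_VEC_CM against VEC_CM (adjusted p = 3.68e-28) and rose by 0.19 ± 0.021 in TGF_KD_CM against TGF_VEC_CM (adjusted p = 9.77e-12), and in OE_CM its log2 fold change was -0.00 ± 0.021 (adjusted p = 0.982).

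ND1, a membrane subunit of complex I (chrM:2751-3707, NCBI gene 17716), went another way. It had 3433, 3475 and 3347 CPM in OE_CM, 2775, 2894 and 2781 CPM in TGF_KD_CM, 2885, 2792 and 2714 CPM in TGF_VEC_CM and 3361, 3457 and 3289 CPM in VEC_CM. The gene was lower in TGF_VEC_CM than in VEC_CM by 0.27 ± 0.022 on the log2 scale (adjusted p = 1.29e-16), but TGF_KD_CM and TGF_VEC_CM overlapped (0.01 ± 0.022, adjusted p = 0.747). ND2, ND4 and ND5, further membrane subunits of complex I, fell in TGF_VEC_CM by 0.32, 0.19 and 0.19 and rose in TGF_KD_CM by 0.12, 0.10 and 0.13. ND5 was also the only mitochondrial gene called in OE_CM against VEC_CM, with 2786, 2867 and 2799 CPM in OE_CM and 2929, 2964 and 2972 CPM in VEC_CM (log2 -0.069 ± 0.021, adjusted p = 0.00353).

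COX1, a catalytic core subunit of complex IV, fell least in TGF_VEC_CM among the mitochondrial genes called there. It had 9110, 9197 and 9172 CPM in OE_CM, 8974, 8818 and 8874 CPM in TGF_KD_CM, 8762, 8513 and 8453 CPM in TGF_VEC_CM and 9278, 9374 and 9170 CPM in VEC_CM. Its fall in TGF_VEC_CM was 0.11 ± 0.018 on the log2 scale (adjusted p = 2.45e-07), and its rise in TGF_KD_CM (0.052 ± 0.018, adjusted p = 0.0174) was lost under 15 settings, RLE, upper-quartile and FPKM scaling among them. COX2 fell by 0.22 and ATP6 by 0.20 in TGF_VEC_CM. The ATP6 call was lost without replicate 3 of VEC_CM (-0.103, adjusted p = 0.162), without replicate 3 of TGF_VEC_CM (-0.123, adjusted p = 0.0972) and with limma on log2(FPKM + 1) (adjusted p = 0.0823). ND3, ND4L, ND6, COX3 and ATP8, the low or variable genes, were called in no comparison.

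Ratios of counts inside a library need no scaling between libraries. CYTB over COX1 was 0.428, 0.434 and 0.4195 in OE_CM, 0.363, 0.3805 and 0.371 in TGF_KD_CM, 0.329, 0.342 and 0.345 in TGF_VEC_CM and 0.4105, 0.4305 and 0.425 in VEC_CM. OE_CM and VEC_CM overlapped, and TGF_KD_CM lay above TGF_VEC_CM in every library and below VEC_CM. ND1 over COX1 averaged 0.373 ± 0.00722 in OE_CM, 0.317 ± 0.01 in TGF_KD_CM, 0.326 ± 0.00439 in TGF_VEC_CM and 0.363 ± 0.00514 in VEC_CM, so that here the TGF_KD_CM libraries overlapped TGF_VEC_CM. The mitochondrial transcripts therefore did not change in 1 common proportion between the groups.

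**Figure D3:**
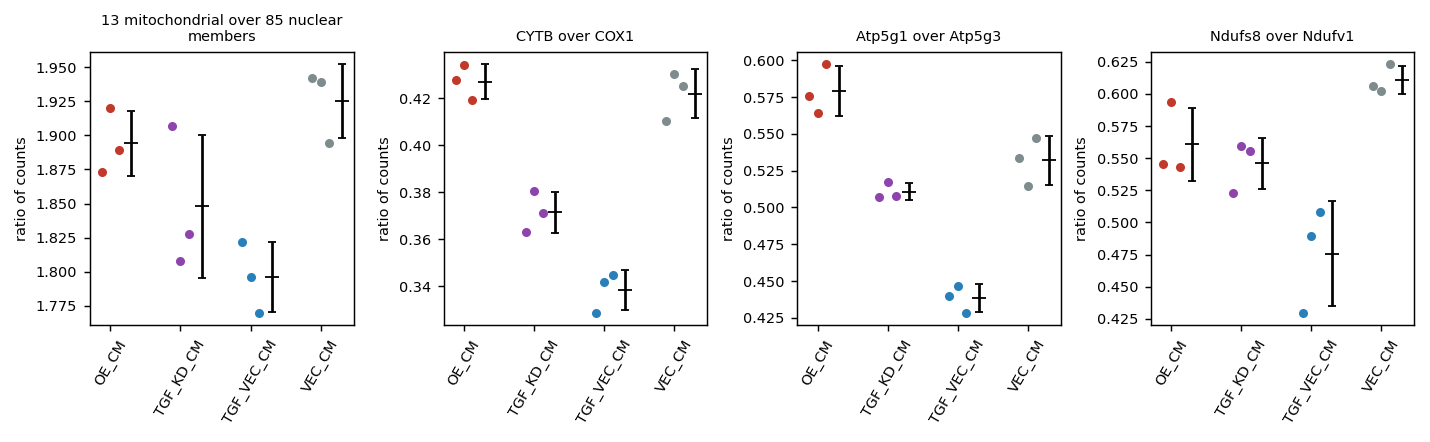
Ratios of counts within each library, with 3 points per group and the mean ± SD as a bar beside them; the vertical axes do not start at 0. CYTB over COX1 and Atp5g1 over Atp5g3 separate TGF_KD_CM from TGF_VEC_CM in every library, whereas the ratio of the 13 mitochondrial to the 85 nuclear members overlaps between them.

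Summed over the 13 genes, mitochondrial subunit mRNA took 2.12% ± 0.015 of the counts in OE_CM, 2.07% ± 0.0098 in TGF_KD_CM, 2.00% ± 0.029 in TGF_VEC_CM and 2.25% ± 0.03 in VEC_CM (SD, n = 3 each). OE_CM and VEC_CM did not overlap by share of counts, but after TMM scaling the sums were 22156 to 22590 CPM in OE_CM and 22250 to 22844 CPM in VEC_CM, which overlap. The 85 nuclear members took 1.12% ± 0.0062 in OE_CM, 1.12% ± 0.027 in TGF_KD_CM, 1.11% ± 0.00079 in TGF_VEC_CM and 1.17% ± 0.013 in VEC_CM. The ratio of mitochondrial to nuclear subunit counts was 1.89 ± 0.024 in OE_CM, 1.85 ± 0.053 in TGF_KD_CM, 1.80 ± 0.026 in TGF_VEC_CM and 1.93 ± 0.027 in VEC_CM, with no overlap between TGF_VEC_CM and VEC_CM.

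Complex I is the largest, with 39 nuclear members, the annotated pseudogene Ndufb4c among them. In TGF_VEC_CM against VEC_CM 19 fell and 3 rose (48.7% and 7.69%, beside 29.4% and 28.9% of all genes, median -0.10). In TGF_KD_CM against TGF_VEC_CM 15 rose and 3 fell (38.5% and 7.69%, beside 23% and 20.2%, median 0.04). OE_CM against VEC_CM had 5 rises and 6 falls (12.8% and 15.4%, beside 28.4% and 25.7%, median -0.01). With upper-quartile factors 0 rose and 17 fell in OE_CM, and with limma on FPKM 1 rose and 15 fell. The core subunits that carry iron-sulfur clusters or bind ubiquinone did not move alike. Ndufs8, which holds iron-sulfur clusters in the arm leading to ubiquinone (chromosome 19, 3908863 to 3912774, NCBI gene 225887), had 70.7, 73.0 and 68.3 CPM in OE_CM, 58.3, 63.95 and 61.9 CPM in TGF_KD_CM, 49.4, 52.1 and 53.8 CPM in TGF_VEC_CM and 72.3, 78.7 and 78.45 CPM in VEC_CM. All TGF_KD_CM libraries lay above TGF_VEC_CM and below VEC_CM, and OE_CM overlapped VEC_CM at 1 library. Ndufs8 fell by 0.56 ± 0.044 in TGF_VEC_CM (adjusted p = 4.5e-18), rose by 0.25 ± 0.044 in TGF_KD_CM (adjusted p = 4.06e-06) and fell by 0.11 ± 0.043 in OE_CM (adjusted p = 0.0199). The OE_CM call was lost without OE_CM replicate 3, VEC_CM replicate 2 or VEC_CM replicate 3 (adjusted p = 0.129, 0.108 and 0.115).

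Ndufs3, which helps form the ubiquinone-binding arm, had 61.0, 58.9 and 62.7 CPM in OE_CM, 55.4, 51.5 and 52.9 CPM in TGF_KD_CM, 43.3, 42.2 and 42.1 CPM in TGF_VEC_CM and 58.75, 60.9 and 59.3 CPM in VEC_CM. It fell by 0.49 ± 0.045 in TGF_VEC_CM and rose by 0.33 ± 0.045 in TGF_KD_CM, with no overlap of the groups, although 84.1% of its transcript is repeated in other annotated genes. Ndufs7, next to the ubiquinone site, fell by 0.35 ± 0.047 in TGF_VEC_CM and rose by 0.17 ± 0.048 in TGF_KD_CM, a rise not called without replicate 1 of TGF_VEC_CM (0.123, adjusted p = 0.0579). The NADH-binding subunit Ndufv1 fell by 0.20 and its neighbour Ndufv2 by 0.097 in TGF_VEC_CM, while in TGF_KD_CM their log2 fold changes were 0.043 and 0.038 and neither passed the test. The Ndufv2 fall was not called with upper-quartile factors, with limma on FPKM, or without replicate 2 of TGF_VEC_CM (-0.064, adjusted p = 0.144) or of VEC_CM (adjusted p = 0.0707). Ndufs1, the large iron-sulfur subunit, fell by 0.14 in TGF_VEC_CM and had 0.043 in TGF_KD_CM without a call.

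Ndufb2, an accessory subunit of the membrane arm, had 30.5, 28.2 and 26.95 CPM in OE_CM, 22.85, 27.5 and 28.4 CPM in TGF_KD_CM, 20.5, 21.3 and 20.25 CPM in TGF_VEC_CM and 27.9, 29.97 and 30.3 CPM in VEC_CM. It fell by 0.51 ± 0.066 in TGF_VEC_CM (adjusted p = 1.35e-09) and rose by 0.34 ± 0.067 in TGF_KD_CM (adjusted p = 1.94e-05). OE_CM and VEC_CM overlapped for this gene, and 50.8% of its transcript is repeated in other annotated genes.

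Ndufv3, an accessory subunit of the NADH-binding module (chromosome 17, 31520115 to 31531326, NCBI gene 78330), ran against most of complex I. It had 32.9, 32.4 and 31.3 CPM in OE_CM, 46.7, 49.1 and 50.7 CPM in TGF_KD_CM, 56.0, 52.3 and 55.3 CPM in TGF_VEC_CM and 47.1, 42.3 and 43.3 CPM in VEC_CM. OE_CM was lowest and TGF_VEC_CM highest, with no overlap in any of the 3 comparisons. It fell by 0.46 ± 0.051 in OE_CM (adjusted p = 8.58e-12), fell by 0.16 ± 0.048 in TGF_KD_CM (adjusted p = 0.00536) and rose by 0.30 ± 0.049 in TGF_VEC_CM (adjusted p = 2.42e-07). The fall in OE_CM kept its call under every setting tried, the 1.2-fold minimum included.

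The membrane-arm subunits Ndufb10 and Ndufa11 shared the rise in TGF_VEC_CM and the fall in TGF_KD_CM. Ndufb10 had 91.2, 96.7 and 96.5 CPM in TGF_KD_CM, against 111.7, 111.5 and 116.6 CPM in TGF_VEC_CM, a fall of 0.26 ± 0.035 on the log2 scale (adjusted p = 9.11e-09). In TGF_VEC_CM against VEC_CM it rose by 0.13 ± 0.035 (adjusted p = 0.0014). Ndufa11 fell by 0.14 ± 0.05 in TGF_KD_CM (adjusted p = 0.018, but 0.0922 without replicate 1 of TGF_VEC_CM) and rose by 0.13 ± 0.05 in TGF_VEC_CM. The groups did not overlap for either gene in these comparisons.

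In OE_CM against VEC_CM the accessory subunits Ndufa1 and Ndufb11 fell by 0.20 ± 0.054 and 0.14 ± 0.049 (adjusted p = 0.00179 and 0.0145), the second call being lost without OE_CM replicate 3, VEC_CM replicate 2 or VEC_CM replicate 3. Ndufs5 and Ndufs7 rose by 0.14 ± 0.049 and 0.12 ± 0.046 (adjusted p = 0.0128 and 0.021), calls that were lost with upper-quartile factors, with FPKM and without replicate 2 of OE_CM (adjusted p = 0.0518 and 0.154). The Ndufs7 call was also lost without a filter and without replicate 1 of VEC_CM (adjusted p = 0.148). Of the Ndufs5 transcript 60.8% is repeated in another annotated gene. Ndufa12, an accessory subunit near the NADH-binding end, had 100.8, 96.6 and 83.25 CPM in OE_CM, against 87.75, 59.5 and 67.75 CPM in VEC_CM. The groups overlapped, VEC_CM replicate 1 standing apart from the other two, and its call (0.39 ± 0.136, adjusted p = 0.0402) was lost under 15 settings, among them leaving out OE_CM replicate 1 or 2 or VEC_CM replicate 2 or 3.

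Complex II, succinate dehydrogenase, has no mitochondrial subunit and links the chain to the citric acid cycle. Sdha, the flavin-bearing catalytic subunit, had 310.8, 318.7 and 317.5 CPM in OE_CM, 315.9, 314.9 and 324.2 CPM in TGF_KD_CM, 333.9, 324.9 and 327.7 CPM in TGF_VEC_CM and 325.2, 338.3 and 338.2 CPM in VEC_CM. OE_CM lay below VEC_CM without overlap and the fall was 0.081 ± 0.025 (adjusted p = 0.00493). Sdhb, the iron-sulfur subunit, fell by 0.11 ± 0.041 in OE_CM (adjusted p = 0.0147, but 0.0738 without OE_CM replicate 2 and 0.153 without VEC_CM replicate 2) and by 0.20 ± 0.041 in TGF_VEC_CM (adjusted p = 1.96e-05). The membrane anchors Sdhc and Sdhd had log2 fold changes between -0.063 and 0.034 in the 3 comparisons and no call. In TGF_KD_CM against TGF_VEC_CM edgeR called 0 of 4 complex II genes, 0 of them also at an unadjusted 0.05, while DESeq2 called 1 lower.

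Complex III had 8 nuclear members, with 4 falls and 2 rises in TGF_VEC_CM (50% and 25%, beside 29.4% and 28.9% of all genes). In TGF_KD_CM there were 2 rises and 2 falls (25% each, beside 23% and 20.2%), which is near the background. OE_CM had 2 rises (25%, beside 28.4%), or 1 rise and 3 falls with upper-quartile factors. Uqcrc1, a core subunit on the matrix side (chr9:108936648-108949641, NCBI gene 22273), had 302.1, 305.9 and 313.0 CPM in OE_CM, 256.5, 257.1 and 256.5 CPM in TGF_KD_CM, 259.3, 255.4 and 261.7 CPM in TGF_VEC_CM and 275.5, 275.2 and 279.8 CPM in VEC_CM. OE_CM stood above VEC_CM in every library and TGF_VEC_CM below it. Uqcrc1 rose by 0.15 ± 0.025 in OE_CM (adjusted p = 7.21e-07), fell by 0.097 ± 0.025 in TGF_VEC_CM (adjusted p = 0.000789) and had -0.01 ± 0.025 in TGF_KD_CM (adjusted p = 0.744). Its partner Uqcrc2 rose by 0.064 ± 0.027 in OE_CM, a call lost under 17 settings. Uqcrfs1, the Rieske iron-sulfur protein, rose by 0.10 ± 0.035 in TGF_VEC_CM (lost without a filter, adjusted p = 0.0676) and fell by 0.12 ± 0.035 in TGF_KD_CM, and the small subunit Uqcr11 fell by 0.19 ± 0.04 in TGF_KD_CM.

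Complex IV, cytochrome c oxidase, had 15 tested nuclear members. Of these 9 fell in TGF_VEC_CM (60%, beside 29.4% of all genes) and 7 rose in TGF_KD_CM (46.7%, beside 23%). By DESeq2 and at an unadjusted 0.05 a single member rose in TGF_VEC_CM, where edgeR called 0. In TGF_KD_CM edgeR called 0 falls beside these rises, DESeq2 and upper-quartile factors each gave 2 rises and 2 falls, limma on FPKM 1 rise and 2 falls, and an unadjusted 0.05 gave 8 rises and 2 falls. In OE_CM 1 rose and 3 fell (6.67% and 20%, beside 28.4% and 25.7% of all genes), and with upper-quartile factors 0 rose and 11 fell. Cox6a2, the subunit VIa isoform of heart and skeletal muscle (chr7:128205435-128206366, NCBI gene 12862), had 3.75, 2.72 and 3.32 CPM in OE_CM, 3.66, 3.74 and 3.65 CPM in TGF_KD_CM, 2.19, 1.54 and 1.79 CPM in TGF_VEC_CM and 5.04, 4.26 and 4.515 CPM in VEC_CM. VEC_CM was highest and TGF_VEC_CM lowest, and the groups did not overlap in any of the 3 comparisons.

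Cox6a2 fell by 1.32 ± 0.177 on the log2 scale in TGF_VEC_CM against VEC_CM (adjusted p = 1.83e-09), the largest called change of any member, and rose by 1.00 ± 0.18 in TGF_KD_CM (adjusted p = 3.95e-06). In OE_CM it fell by 0.49 ± 0.167 (adjusted p = 0.00953, but 0.0846 without replicate 2 of OE_CM and 0.0533 without replicate 1 of VEC_CM). The gene is at a low level, with 57 to 185 counts per library. The summed heart muscle markers, nearly all of them Tnnt2, ran from 163.4 to 167.2 CPM in OE_CM, 97.8 to 104.4 CPM in TGF_KD_CM, 105.2 to 116.3 CPM in TGF_VEC_CM and 70.1 to 75.4 CPM in VEC_CM, and Tnni3, Actc1 and Myl2 were at or near 0 throughout; their part in the changes of Cox6a2 was not tested. Cox7a1, the muscle isoform of subunit VIIa, had 1.21, 0.837 and 1.00 CPM in OE_CM, against 2.10, 1.502 and 2.24 CPM in VEC_CM. It fell by 0.93 ± 0.268 without overlap (adjusted p = 0.00238), a call kept under every setting, at a low level, with 28 to 94 counts per library. Cox4i2 stayed below 1 FPKM on average (0.479) and was not called in any comparison.

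The other members of complex IV named here had smaller called changes than Cox6a2 and Cox7a1. Cox7c had 100.9, 109.7 and 104.1 CPM in TGF_VEC_CM, below its 126.3, 129.9 and 123.7 CPM in VEC_CM. Of its transcript 54% is repeated in another annotated gene. Cox5a, an outer subunit of the catalytic core, had 164.1, 157.9 and 161.7 CPM in OE_CM, against 146.3, 146.9 and 147.6 CPM in VEC_CM, a rise of 0.13 ± 0.029 without overlap (adjusted p = 6.9e-05) that was lost with upper-quartile factors (0.047, adjusted p = 0.164). Cox4i1, Cox5b, Cox6b1 and Cox6c fell in TGF_VEC_CM by 0.15, 0.19, 0.19 and 0.19. In TGF_KD_CM Cox4i1 and Cox6b1 rose by 0.065 and 0.083, calls lost under 18 and 16 settings. Cox6a1, the general partner of Cox6a2, had log2 fold changes of 0.054, -0.064 and 0.061 in OE_CM, TGF_KD_CM and TGF_VEC_CM and no call.

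In complex V most subunits were lower in TGF_VEC_CM. Of 17 nuclear members 15 fell and 1 rose in TGF_VEC_CM against VEC_CM (88.2% and 5.88%, beside 29.4% and 28.9% of all genes, median -0.18). In TGF_KD_CM against TGF_VEC_CM 7 rose and 1 fell (41.2% and 5.88%, beside 23% and 20.2%, median 0.04). OE_CM against VEC_CM had 3 rises and 3 falls (17.6% each, beside 28.4% and 25.7%, median -0.03). With upper-quartile factors the falls in TGF_VEC_CM numbered 12, and in OE_CM 0 rose and 11 fell. The c subunit, whose ring turns in the membrane as protons pass, is encoded by Atp5g1, Atp5g2 and Atp5g3, genes for the same mature protein with different import signals. Atp5g1 (chr11:96072793-96075694, NCBI gene 11951) had 131.3, 130.4 and 132.1 CPM in OE_CM, 94.7, 107.5 and 100.3 CPM in TGF_KD_CM, 86.3, 88.6 and 84.9 CPM in TGF_VEC_CM and 118.2, 125.4 and 123.1 CPM in VEC_CM. No groups overlapped within a comparison, OE_CM being highest and TGF_VEC_CM lowest. It rose by 0.10 ± 0.035 in OE_CM (adjusted p = 0.0096, lost with upper-quartile factors, with FPKM and without replicate 1 of VEC_CM), rose by 0.22 ± 0.036 in TGF_KD_CM (adjusted p = 6.61e-07) and fell by 0.50 ± 0.036 in TGF_VEC_CM (adjusted p = 1.72e-19).

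Atp5g2 (chr15:102662868-102671047, NCBI gene 67942) had 291.3, 292.3 and 294.3 CPM in OE_CM, 262.7, 273.6 and 270.4 CPM in TGF_KD_CM, 226.4, 218.3 and 208.9 CPM in TGF_VEC_CM and 297.2, 317.3 and 307.5 CPM in VEC_CM. The groups again did not overlap within the comparisons, and TGF_VEC_CM was lowest. Its log2 changes were -0.071 ± 0.027 in OE_CM (adjusted p = 0.0251, lost without OE_CM replicate 2 or 3 or VEC_CM replicate 2 or 3), 0.30 ± 0.028 in TGF_KD_CM (adjusted p = 1.19e-14) and -0.50 ± 0.028 in TGF_VEC_CM (adjusted p = 1.11e-24). Its transcript is repeated over 100% of its length in the pseudogene Gm10175, so its count is uncertain. Atp5g3 fell by 0.22 ± 0.032 in TGF_VEC_CM and had -0.00 ± 0.032 in TGF_KD_CM (adjusted p = 0.977).

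The ratio of Atp5g1 to Atp5g3 counts, 0.576, 0.564 and 0.597 in OE_CM, 0.507, 0.517 and 0.508 in TGF_KD_CM, 0.44, 0.447 and 0.4285 in TGF_VEC_CM and 0.534, 0.515 and 0.547 in VEC_CM, shows the same order without any scaling between libraries. OE_CM lay above VEC_CM in every library, and TGF_KD_CM above TGF_VEC_CM.

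Among the other parts of the enzyme, Atp5e, the epsilon subunit of the central stalk, had 87.6, 100.2 and 89.1 CPM in TGF_KD_CM, against 73.1, 74.5 and 76.3 CPM in TGF_VEC_CM, a rise of 0.31 ± 0.039 (adjusted p = 1.17e-09). In TGF_VEC_CM against VEC_CM, where VEC_CM had 98.3, 104.0 and 99.9 CPM, it fell by 0.43 ± 0.039 (adjusted p = 3.59e-15). Its neighbour in the stalk, the delta subunit gene Atp5d, did the reverse: it had 224.5, 236.6 and 236.1 CPM in TGF_KD_CM, 255.9, 246.9 and 250.4 CPM in TGF_VEC_CM and 212.7, 221.6 and 224.7 CPM in VEC_CM. Atp5d rose by 0.19 ± 0.027 in TGF_VEC_CM (adjusted p = 1.06e-08) and fell by 0.11 ± 0.027 in TGF_KD_CM (adjusted p = 0.000583), with no overlap in either. The catalytic genes Atp5a1 and Atp5b fell by 0.11 ± 0.022 and 0.068 ± 0.021 in TGF_VEC_CM, the Atp5b call being lost with upper-quartile factors or FPKM and without replicate 3 of TGF_VEC_CM or of VEC_CM. In OE_CM Atp5b had 1797, 1802 and 1800 CPM, against 1684, 1684 and 1697 CPM in VEC_CM (0.092 ± 0.021, adjusted p = 0.000105), a rise that upper-quartile factors left at 0.005 (adjusted p = 0.846).

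**Figure D4:**
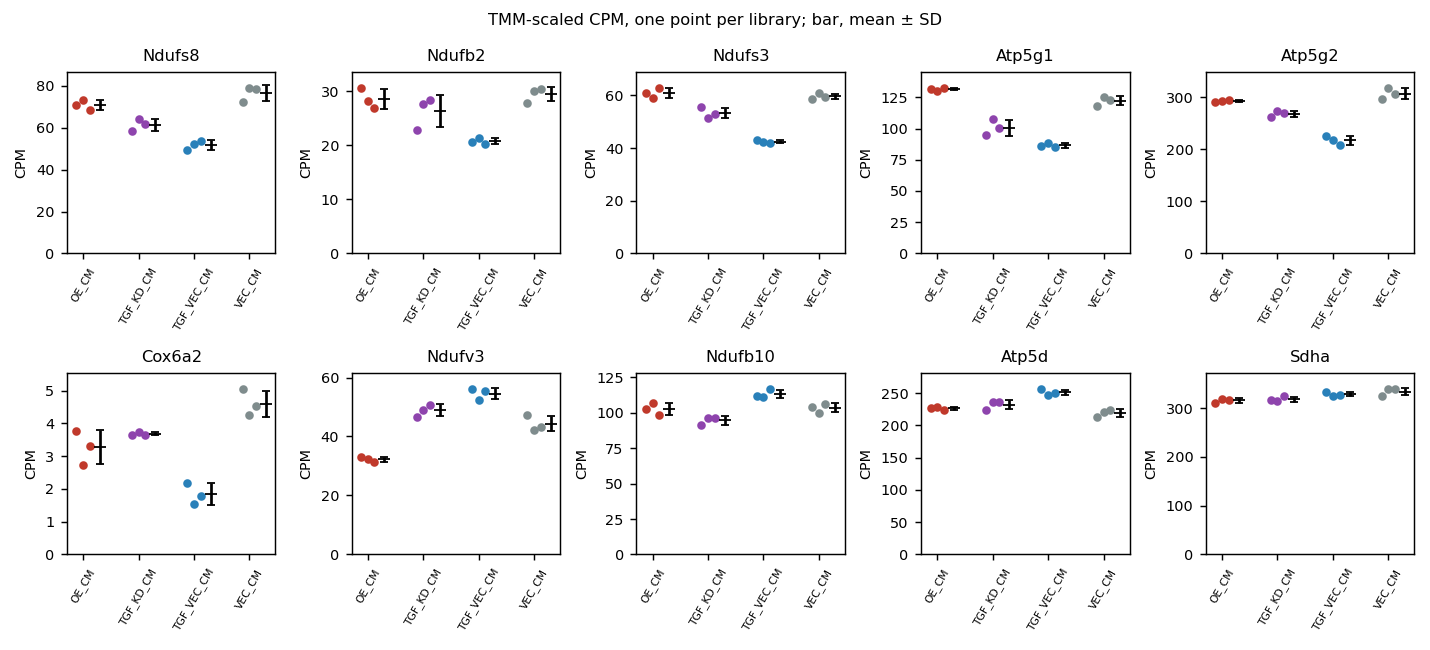
TMM-scaled CPM of 10 members in every library, by group, with mean ± SD beside the points and axes from 0. Ndufs8, Ndufb2, Ndufs3, Atp5g1, Atp5g2 and Cox6a2 are lowest in TGF_VEC_CM, Ndufv3 is lowest in OE_CM, Ndufb10 and Atp5d are highest in TGF_VEC_CM, and Sdha changes little.

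Genes of this pathway are known to be transcribed through sites for NRF1, for ETS factors such as GABP and for YY1. Promoters from 250 bases before to 50 bases after the start (RefSeq, GRCm38.p6) were found for 69 of the 85 nuclear members and searched on both strands. The NRF1 core letters CGCATGCG occurred in 9 members (13%), against 2.07% of 27025 genes with a promoter, the ETS letters CCGGAAG in 17 (24.6%, against 9.93%) and the YY1 letters AAGATGGC in 10 (14.5%, against 3.19%). At least 1 of the 3 runs was found in 30 members (43.5%), each counted once, against 14.1% of all genes with a promoter. Those genes were taken whether or not they are expressed in these cells, and expressed genes alone were not compared. These are matches of letters and not shown to be sites. The promoters of Atp5g2, of Atp5k, which encodes a small membrane subunit of complex V, and of Ndufa11 are printed as examples. All hold the NRF1 letters, in capitals, and they were chosen after their changes were seen. How the other members with these letters moved is not given here, and the part of the letters in the changes was not tested. Atp5g2 and Atp5k fell in TGF_VEC_CM against VEC_CM by 0.50 and 0.40, whereas Ndufa11 rose by 0.13 (adjusted p = 0.0238, lost without a filter and without replicate 1 of TGF_VEC_CM or of VEC_CM). Atp5k also holds the ETS letters on the other strand, in capitals near its end. The windows are chr15:102670998-102671297 for Atp5g2 and chr5:108434350-108434649 for Atp5k, on the minus strand, and chr17:56717512-56717811 for Ndufa11, on the plus strand.
Atp5g2: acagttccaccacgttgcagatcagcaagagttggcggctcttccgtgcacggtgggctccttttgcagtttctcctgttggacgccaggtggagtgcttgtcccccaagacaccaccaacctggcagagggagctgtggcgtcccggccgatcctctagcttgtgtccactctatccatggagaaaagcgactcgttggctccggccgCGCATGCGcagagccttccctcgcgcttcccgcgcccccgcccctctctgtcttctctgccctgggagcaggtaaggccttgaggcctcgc
Atp5k: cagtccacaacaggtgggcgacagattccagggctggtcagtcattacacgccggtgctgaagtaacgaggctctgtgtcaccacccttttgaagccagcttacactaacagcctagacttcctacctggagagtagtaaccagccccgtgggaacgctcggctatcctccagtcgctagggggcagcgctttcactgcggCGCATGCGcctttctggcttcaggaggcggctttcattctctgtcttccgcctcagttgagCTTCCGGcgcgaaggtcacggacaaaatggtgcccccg
Ndufa11: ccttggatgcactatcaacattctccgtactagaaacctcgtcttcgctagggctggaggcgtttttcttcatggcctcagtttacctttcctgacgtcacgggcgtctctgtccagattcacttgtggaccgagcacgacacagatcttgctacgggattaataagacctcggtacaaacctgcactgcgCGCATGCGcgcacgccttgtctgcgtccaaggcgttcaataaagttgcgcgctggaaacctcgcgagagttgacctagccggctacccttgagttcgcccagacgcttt

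Factors that act on these promoters were read from a list of 14 tested regulators, of which 4 rose and 3 fell in OE_CM, 3 rose and 4 fell in TGF_KD_CM, and 3 rose and 5 fell in TGF_VEC_CM. In these comparisons 28.6%, 21.4% and 21.4% of the list were higher, beside 28.4%, 23% and 28.9% of all genes, and 21.4%, 28.6% and 35.7% lower, beside 25.7%, 20.2% and 29.4%, which is near the background. The same all-gene shares apply to the lists that follow. Ppargc1a, the coactivator best known for driving mitochondrial biogenesis, had 1.95, 2.42 and 1.72 CPM in OE_CM, 8.43, 6.51 and 6.28 CPM in TGF_KD_CM, 7.87, 8.44 and 7.57 CPM in TGF_VEC_CM and 8.60, 8.82 and 7.36 CPM in VEC_CM. OE_CM lay apart from all other libraries, and the gene fell by 2.02 ± 0.145 on the log2 scale (adjusted p = 1.5e-19). The members had a median log2 fold change of -0.01 in the same comparison. Ppargc1b, its relative, fell by 0.34 ± 0.076 in OE_CM, while Pprc1, another coactivator of the family, rose by 0.56 ± 0.035 and Myc by 1.16 ± 0.037.

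Gabpa, the DNA-binding part of GABP, had 99.3, 99.5 and 94.75 CPM in TGF_KD_CM, 83.6, 84.9 and 83.2 CPM in TGF_VEC_CM and 105.1, 102.2 and 96.1 CPM in VEC_CM. It fell by 0.27 ± 0.036 in TGF_VEC_CM (adjusted p = 2.12e-09) and rose by 0.22 ± 0.036 in TGF_KD_CM (adjusted p = 5.82e-07), without overlap. Esrra, an orphan nuclear receptor of the same program, rose by 0.36 ± 0.057 in TGF_VEC_CM and fell by 0.28 ± 0.056 in TGF_KD_CM.

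Genes that read and keep mitochondrial DNA, 22 tested, rose in 11 cases and fell in 1 in OE_CM (50% higher and 4.55% lower, beside 28.4% and 25.7% of all genes; median 0.13; 8 rose and 3 fell with upper-quartile factors). Twnk, the replicative helicase, rose by 0.42 ± 0.05, Polg, the polymerase, by 0.27 ± 0.035 and Ssbp1, the single-strand binding protein, by 0.23 ± 0.037. In TGF_KD_CM 3 rose (13.6%, beside 23% of all genes), among them Pnpt1, an RNA-degrading enzyme, by 0.40 ± 0.041. In TGF_VEC_CM 2 rose and 6 fell (9.09% and 27.3%, beside 28.9% and 29.4%), so the share lower was near the background. Mterf3, a regulator of mitochondrial transcription, was lower by 0.28 ± 0.053 there. The 13 mitochondrial subunit genes had medians of 0.01, 0.10 and -0.20 in OE_CM, TGF_KD_CM and TGF_VEC_CM.

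The proteins of the mitochondrial ribosome translate the 13 mitochondrial messages. Of 78 genes tested 45 rose and 3 fell in OE_CM (median 0.17), and 28 and 6 with upper-quartile factors. With TMM that is 57.7% higher and 3.85% lower, beside 28.4% and 25.7% of all genes. Mrpl12 rose by 0.37 ± 0.031 and Mrpl17 by 0.43 ± 0.04. In TGF_KD_CM 15 rose and 14 fell (19.2% and 17.9%, beside 23% and 20.2% of all genes), but 10 rose and 18 fell with upper-quartile factors and 11 and 25 with limma on FPKM. In TGF_VEC_CM 7 rose and 35 fell (8.97% and 44.9%, beside 28.9% and 29.4%; median -0.10), and 12 and 29 or 14 and 28 under those settings, with Mrpl54 lower by 0.60 ± 0.059 and Mrpl11 by 0.54 ± 0.05. In TGF_KD_CM these 2 rose by 0.37 ± 0.06 and 0.29 ± 0.05.

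Assembly factors build the complexes without being part of them. Of 45 tested 16 rose and 6 fell in OE_CM (35.6% and 13.3%; 4 rose and 8 fell with upper-quartile factors), 3 rose and 10 fell in TGF_KD_CM (6.67% and 22.2%), and 15 rose and 13 fell in TGF_VEC_CM (33.3% and 28.9%). Ndufaf4 and Ecsit, both needed for complex I, rose by 0.46 ± 0.055 and 0.39 ± 0.048 in OE_CM and fell by 0.30 ± 0.057 and 0.29 ± 0.048 in TGF_KD_CM. Cox20, a chaperone for COX2, fell by 0.57 ± 0.093 in OE_CM and by 0.82 ± 0.094 in TGF_VEC_CM, and rose by 0.47 ± 0.096 in TGF_KD_CM.

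Of 23 carriers and shuttles that work beside the complexes 11 rose and 5 fell in OE_CM (47.8% and 21.7%; 8 and 8 with upper-quartile factors), 3 rose and 11 fell in TGF_KD_CM (13% and 47.8%), and 9 rose and 5 fell in TGF_VEC_CM (39.1% and 21.7%). Cycs, cytochrome c, had 351.6, 355.5 and 352 CPM in OE_CM, 278.8, 297.2 and 291.4 CPM in TGF_KD_CM, 308.2, 324.7 and 316.7 CPM in TGF_VEC_CM and 277.6, 286.8 and 280.7 CPM in VEC_CM. It rose by 0.33 ± 0.026 in OE_CM (adjusted p = 2.13e-17) and fell by 0.13 ± 0.026 in TGF_KD_CM, with no overlap in either. Cyc1, cytochrome c1 of complex III, whose symbol falls outside the families used here, fell by 0.20 ± 0.03 in TGF_KD_CM. Coq8a, a kinase-like protein of ubiquinone synthesis, fell by 1.54 ± 0.154 in OE_CM. Slc25a5, an ADP/ATP carrier, rose by 0.25 ± 0.024 in OE_CM and fell by 0.40 ± 0.024 in TGF_VEC_CM.

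The citric acid cycle and pyruvate dehydrogenase supply the chain with NADH and succinate. Of 16 genes 4 rose and 2 fell in OE_CM (25% and 12.5%; 3 and 10 with upper-quartile factors), 6 rose and 7 fell in TGF_KD_CM (37.5% and 43.8%), and 6 rose and 8 fell in TGF_VEC_CM (37.5% and 50%). Idh3a, a catalytic subunit of isocitrate dehydrogenase, rose by 0.53 ± 0.03 in OE_CM and by 0.42 ± 0.03 in TGF_VEC_CM and fell by 0.23 ± 0.03 in TGF_KD_CM. Pdhb, of pyruvate dehydrogenase, fell by 0.55 ± 0.034 in TGF_VEC_CM and rose by 0.33 ± 0.035 in TGF_KD_CM.

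**Figure D5:**
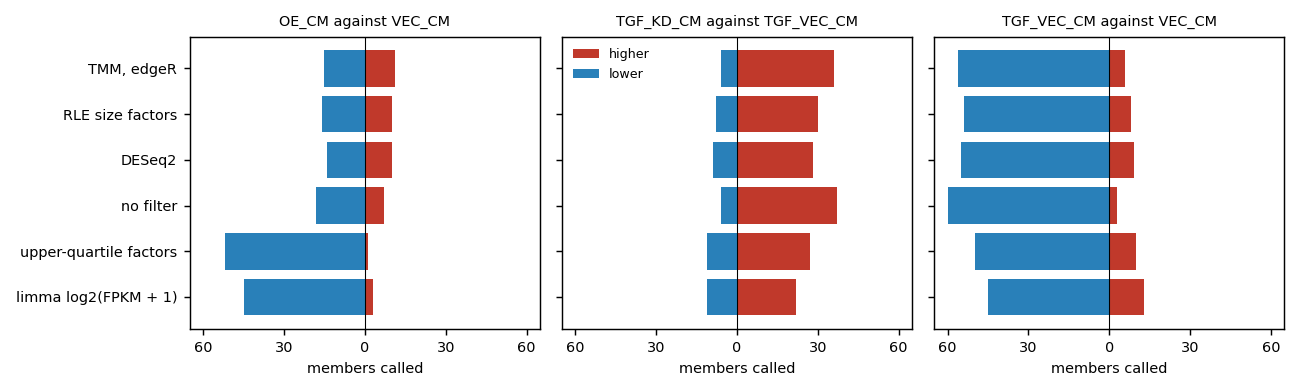
Number of members called higher (right, red) and lower (left, blue) in each comparison under the edgeR fit with TMM factors and 5 alternatives. In TGF_VEC_CM against VEC_CM falls outnumber rises under all 6 and in TGF_KD_CM against TGF_VEC_CM rises outnumber falls, whereas in OE_CM against VEC_CM the counts are 11 and 15 with TMM and 1 and 52 with upper-quartile factors.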

How the data were processed

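Libraries came from a SMARTER mRNA kit with an input of 1.3 µg total RNA, per the labels' protocols. The submitters' processing notes name GRCm38 and mm10 as genome builds. No aligner, counter, strand setting or annotation is named in the sources used here. The authors deposited whole-number counts per gene, with no normalization, and an FPKM table of the same genes and libraries, whose values equal the counts over column totals and a fixed gene length (constant to 0.01% for 24619 genes).

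The count test was edgeR 4.0.16 in R 4.3.3. After filterByExpr, which kept 14400 genes and removed 10219, a robust quasi-likelihood model with TMM factors and a mean per group took all 12 libraries. Dispersion was low, with a common biological coefficient of variation of 0.0341. Alternatives used DESeq2 1.42.0, limma 3.58.1 on log2(FPKM + 1) and log2(FPKM + 0.1), glmTreat at 1.2-fold, other scalings and filters, and left-out libraries. The fit was tested on simulated counts. Copies were sought with BLAST 2.17.0 (at least 98% identity over 30 bases or more) among GENCODE transcripts of GRCm38. Of the 81 nuclear members with a transcript, 9 were repeated over 50% or more. No protein-coding transcript was found there for Ndufb1, Ndufb4b, Ndufb4c and Ndufs6b. Replicates differed by more than sampling noise in every pair (chi-square per gene 2.87 to 4.23). The floor covers counting error only.

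The members, gene lists and tests were chosen with earlier results of these data known, and the motif letters after the data were seen. By rule the text names the mitochondrial genes, catalytic and core subunits, isoform sets, the 5 largest called rises and falls per comparison, and genes among the 4 of lowest p per list and comparison. Other members are named where a motif, a level or a call set holds them, chosen after their values were seen. RefSeq held 23408 of the symbols and all 98 members. Some results that the naming rule covers are not reported here.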

Additional observations from a re-analysis of the deposited data

How the results depend on the processing

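Counts of called members stayed within 1.5 times of the reported ones with RLE factors, DESeq2, library sizes without mitochondrial genes, a filter at 1 CPM and fits of the compared groups only. With upper-quartile factors 1 member was higher and 52 lower in OE_CM against VEC_CM, 11 were lower in TGF_KD_CM against TGF_VEC_CM, and 10 higher in TGF_VEC_CM against VEC_CM. With limma on log2(FPKM + 1) these counts were 3, 45, 11 and 13, and with log2(FPKM + 0.1) 3, 47, 11 and 13; 22 and 23 were higher in TGF_KD_CM. Without a filter 7 were higher in OE_CM and 3 in TGF_VEC_CM. With the 1.2-fold minimum 0 were higher and 2 lower in OE_CM, 1 higher and 0 lower in TGF_KD_CM, 0 higher and 12 lower in TGF_VEC_CM, and the difference was called for 3. The cause was not tested.

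Leaving out 1 library gave 6 to 12 members higher and 7 to 18 lower in OE_CM, and 21 to 36 higher and 6 to 10 lower in TGF_KD_CM. In OE_CM the sign reversed with upper-quartile factors, limma on log2(FPKM + 1) and on log2(FPKM + 0.1) for Atp5a1 (-0.016, -0.005 and -0.005), Cox5b (-0.075, -0.064 and -0.064), ND2 (-0.082, -0.070 and -0.070), ND4 (-0.080, -0.069 and -0.069) and Uqcrc2 (-0.023, -0.012 and -0.012), and for ND1 (-0.066, -0.055 and -0.055, called only with upper-quartile factors). Another 12 named genes with upper-quartile factors, and 13 counting ND1 with either FPKM setting, turned sign with no call on either side, Sdhd among them (-0.053, -0.041 and -0.041). As TMM-scaled sums the nuclear members were 97.09 CPM higher in OE_CM, though lower by share of counts. The nuclear share in TGF_KD_CM less that in TGF_VEC_CM was -0.0008142 percentage points by FPKM, and -0.003745 to 0.0231 with 1 library left out, the lowest without replicate 2 of TGF_KD_CM.

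Leaving out members repeated over 50% or more, chosen after seeing the data, left 10 higher and 14 lower in OE_CM, 29 and 6 in TGF_KD_CM, and 6 and 45 in TGF_VEC_CM. Correlations between the deviations of same-numbered libraries of different groups were small and mostly positive (-0.037 to 0.044). Between different-numbered libraries they ran from -0.039 to 0.037. With the replicate block the counts were 11 and 16 in OE_CM, 36 and 7 in TGF_KD_CM, and 6 and 57 in TGF_VEC_CM, and no count moved by 1.5 times. Depth limits Cox7b2 and Cox8b, with 0 to 2 counts per library, Cox4i2, with 5 to 30, and Cox7a1, with 28 to 94. It also limits Ndufb4c, with 9 to 31, and Ndufb4b, with 57 to 108. Cox6a2 had 57 to 185 counts per library, Ndufs6b 77 to 122 and ND3 85 to 133, which is low as well.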
